A study of Mus musculus with 4 samples.

Results

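*Cytl1*, *Barx1*, *Hes5*, *Zeb1* and *Slc16a10* are 5 of the 32288 genes and transgenes counted in single cells of the mouse hindlimb at E14.5, embryonic day counted from mating. They were picked by symbol from measured values, namely their level in resting-zone chondrocytes against other cell types and the p21 against control difference in those cells. Those 2 measures are therefore given below as descriptions, with no test. The values went against the shared description in part. *Cytl1*, *Zeb1* and *Slc16a10* were lower with p21 in resting chondrocytes in 4 of 4 libraries, whereas *Barx1* was higher in 3 of 4 and *Hes5* was higher in 2 and lower in 2. *Zeb1* and *Slc16a10* were also not enriched in resting chondrocytes when p21 and control cells were summed together.

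The embryos carried *Gli1*-CreER, a lox-STOP-lox-tdTomato reporter at *Rosa26* and *Tigre*-TRE-p21, a doxycycline-responsive p21 transgene. The *Pan-Cart-p21MOE* embryos (p21 hereafter) also carried *Col2a1-rtTA*, which switches p21 on in cartilage in a mosaic of cells, and the controls lacked it. Both received doxycycline (1 mg/ml in the drinking water, and in the food) from E12.5 and tamoxifen (120 µg/g) at E13.5, so that cells then expressing *Gli1* and their progeny turned on tdTomato. Hindlimb cells were sorted into tdT+ (libraries S1 and S3) and tdT- (S2 and S4) and sequenced with the 10x 3′ assay. In collection 1 (S1 and S2), male p21 cells were mixed with female control cells, and in collection 2 (S3 and S4) female p21 cells with male control cells. Each cell was assigned to its condition by its sex-linked transcripts, as the study's methods set out. The number of embryos per pool is given differently in the study's methods and in its results, and by the methods the female p21 pool was a single embryo. The 8 values per gene below (4 libraries, each with p21 and control cells) thus stand for 2 embryo pools per condition, each split into its tdT+ and tdT- cells.

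The resting zone is the reserve of slowly cycling chondrocytes at the ends of a growing skeletal element, from which columns of proliferating chondrocytes arise before they enlarge into hypertrophic cells. *Cytl1* encodes a secreted, cytokine-like protein made by cartilage. *Barx1* encodes a homeodomain factor of joint and stomach mesenchyme. *Hes5* encodes a basic helix-loop-helix repressor that Notch signalling switches on through the DNA-binding factor RBPJ. *Zeb1* encodes a zinc-finger repressor that binds E-boxes and is known for mesenchymal cell states. *Slc16a10* encodes a transporter of aromatic amino acids and thyroid hormone.

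The promoters of *Cytl1* and *Slc16a10*, which were lower with p21 in resting chondrocytes, and of *Hes5*, whose control by Notch is textbook knowledge, are shown as the 250 bases before the RefSeq start site (GRCm38.p6). They lie at chr5:37735269-37735518 (+ strand), chr10:40142255-40142504 (- strand) and chr4:154960673-154960922 (+ strand). Capitals mark every match, on either strand, to 1 of 7 short motifs, namely TGGGAA for RBPJ, CACCTG for ZEB factors, CACNAG for HES factors, TTTGAA for the cell-cycle element CHR, TTTCCCGC for E2F, ACAAAG for SOX and TGGGTGGTC for GLI.
Cytl1: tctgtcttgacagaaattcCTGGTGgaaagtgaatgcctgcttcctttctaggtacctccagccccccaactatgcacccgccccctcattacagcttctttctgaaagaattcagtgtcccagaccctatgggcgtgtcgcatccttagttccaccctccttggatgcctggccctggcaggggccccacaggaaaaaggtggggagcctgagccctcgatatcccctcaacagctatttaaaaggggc
Slc16a10: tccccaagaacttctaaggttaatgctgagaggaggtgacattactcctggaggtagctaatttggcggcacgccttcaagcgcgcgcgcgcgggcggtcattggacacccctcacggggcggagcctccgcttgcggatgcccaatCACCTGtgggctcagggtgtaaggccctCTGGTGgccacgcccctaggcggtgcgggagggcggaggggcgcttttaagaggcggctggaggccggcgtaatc
Hes5: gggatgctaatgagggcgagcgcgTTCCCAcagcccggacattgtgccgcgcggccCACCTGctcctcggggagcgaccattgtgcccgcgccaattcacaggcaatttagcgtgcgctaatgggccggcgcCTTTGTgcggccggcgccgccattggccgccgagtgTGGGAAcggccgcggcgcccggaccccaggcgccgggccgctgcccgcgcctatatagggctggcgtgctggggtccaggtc

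The *Hes5* window held 2 RBPJ matches, the nearer of which began 82 bases before the start site, and 1 match each to the ZEB and SOX motifs. Of all 32851 windows of 300 bases, which run from 250 bases before to 50 bases after a start, 25.6% held an RBPJ match, 20.2% a ZEB match and 18.7% a SOX match. *Slc16a10* held 1 ZEB match and 1 HES match. *Cytl1* held 2 HES matches, 1 of them after the start site, and *Barx1* (chr13:48662786-48663085, + strand) held 1, and this motif was in 42.5% of all windows. No match to CHR (17.9% of windows), E2F (1.07%) or GLI (0.253%) was found in these 4 windows. The motifs do not overlap each other in the 3 sequences shown. A match shows only that the letters are there.

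In GENCODE vM21 (GRCm38) the 4 genes are protein-coding. *Cytl1* spans chr5:37735519-37739820, *Barx1* chr13:48662998-48666507 and *Hes5* chr4:154960923-154962371, all on the + strand, and *Slc16a10* spans chr10:40033532-40142258 on the - strand. Since the 10x 3′ assay counts the 3′ ends of transcripts, its values do not tell isoforms apart.

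After filtering, 2823 cells remained (1818 p21 and 1005 control) with a median of 17148 to 27316 unique molecular identifiers (UMIs) per cell in the 4 libraries, and pairs of libraries shared 40 barcodes in all. Of the 6873 barcodes that passed the filters on UMIs, genes and mitochondrial counts, 3729 (54.3%) had no sex call and were left out, from 25.2% in S1 to 70.2% in S4. Their median depth was 1144 to 3182 UMIs. The cells were clustered without the 5 genes. Cluster 3 (268 cells) was called resting chondrocyte-like, since 7 of 9 general chondrocyte markers and 4 of 7 resting-zone markers (*Ucma*, *Pthlh*, *Gdf10* and *Sfrp5*) were detected at a raised level in it. Cluster 3 also had 2 of 7 proliferative markers raised (*Matn1* and *Matn3*), and its mean log2 fold over the list was 0.37 for resting and 0.39 for proliferative markers. Unnamed clusters 7 and 9 had 2 and 3 of 7 resting markers raised and were put in neither class. The resting list was the best match of both, with a mean log2 fold of 0.31 and 0.47. They had 2 and 0 of 9 general chondrocyte markers raised. *Hes5* was the leading gene of cluster 3 and *Barx1* was also in its top 10, although neither was used to form it. The heat-shock genes *Hspa1b* and *Hspa1a* led it too. The resting cells comprised 15 to 67 p21 and 16 to 61 control cells per library, and the 8 sums held 367606 to 1355905 UMIs. Another 551 cells (clusters 4, 5, 13 and 21) were other chondrocytes, 1371 lay outside cartilage by their markers, and 633 were put in neither class. *WPRE*, a sequence carried by the p21 transgene and by the tdTomato reporter, was raised with p21 in resting chondrocytes, at 1521 ± 432 CPM (SD, n = 4) against 496 ± 424 in controls (log2 fold change 2.03, SE 0.33, adjusted p = 0.0425 in edgeR's quasi-likelihood test). CPM here means UMIs of the gene per 1000000 UMIs of the summed cells, scaled by TMM, a correction for composition. Counts at *Cdkn1a*, the endogenous p21 gene, were 34.1 ± 8.40 with p21 and 30.4 ± 8.20 in controls (adjusted p = 0.937), and the transgene was not separately counted other than through *WPRE*.

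The levels over cell types set the 5 genes apart from each other. In the 19 clusters of at least 30 cells, the resting cluster ranked 2 of 19 for *Cytl1*, *Barx1* and *Hes5*, but 15 of 19 for *Zeb1* and 11 of 19 for *Slc16a10*. *Zeb1* and *Slc16a10* were thus not particular to resting chondrocytes when both conditions were summed. Of the 268 resting cells, 151 were p21 cells. In control cells alone (unscaled), *Slc16a10* was at 27.1 CPM in the resting cluster (6.66 with p21), 42.3 in cluster 4 and 14.6 in cluster 5. *Zeb1* was at 87.0 CPM in resting controls (39.9 with p21). In controls it was at 74.7, 41.0 and 46.6 CPM in clusters 4, 5 and 13, and 172 CPM in osteoprogenitor-like cluster 1. Fewer transcribing cells and less RNA per cell cannot be told apart in such sums.

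**Figure D1:**
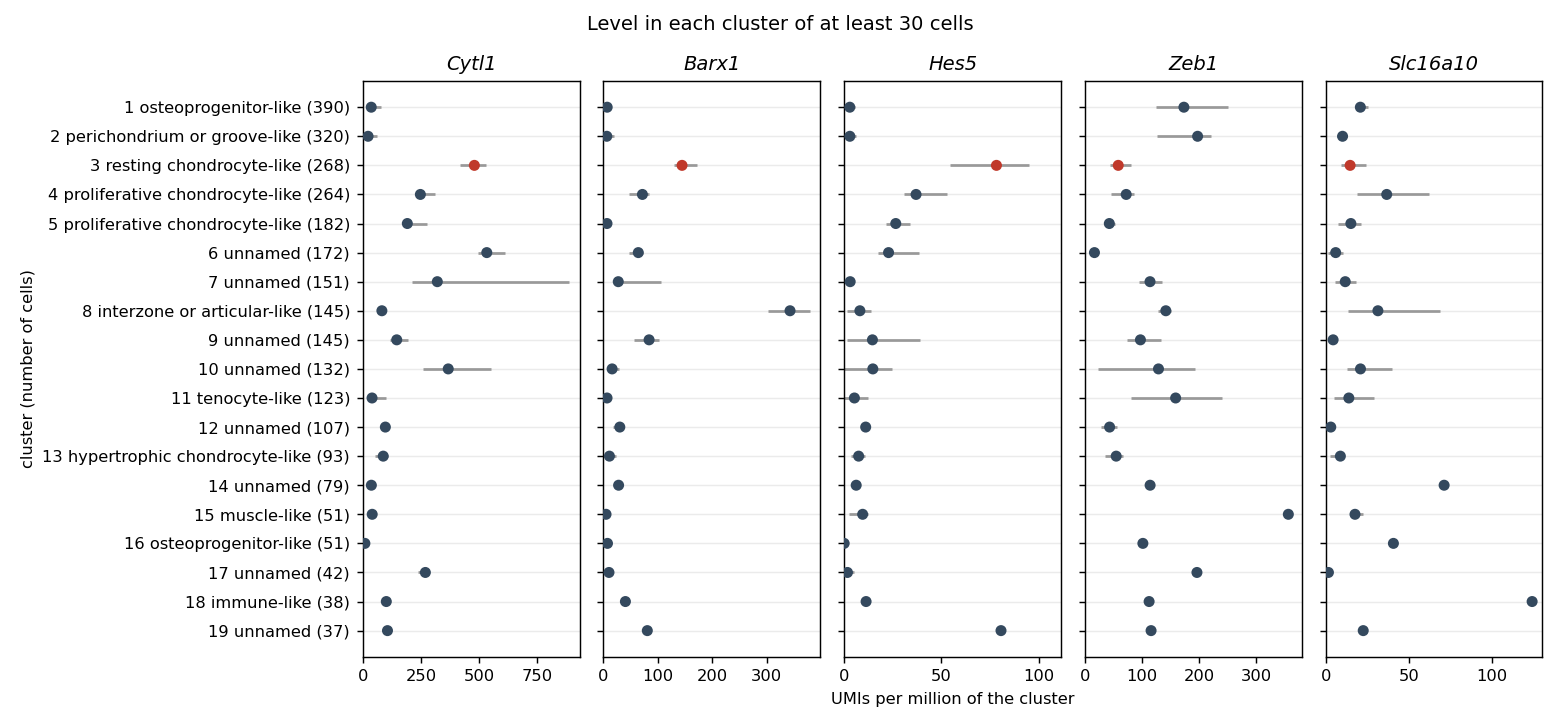
Level of each gene (CPM, horizontal axis) in the 19 clusters of at least 30 cells (vertical axis, with cell numbers). Points are sums over libraries and both conditions, grey lines run from the lowest to the highest library with at least 10 cells, and the resting chondrocyte-like cluster is red. It ranks 2 of 19 for *Cytl1*, *Barx1* and *Hes5*, 15 for *Zeb1* and 11 for *Slc16a10*.

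*Cytl1* was at 480 CPM in the resting cluster, with 418 to 531 CPM in the 4 libraries (unscaled sums here and in the rest of this account of clusters). With both conditions joined it was highest, at 534 CPM (495 to 614), in cluster 6. This is an unnamed cluster led by the haemoglobin gene *Hbb-bs* that also has *Cytl1* in its top 10. The ranges of clusters 3 and 6 overlapped, as did those of unnamed clusters 10 (368 CPM, 259 to 554) and 7 (321 CPM, 214 to 889). The proliferative chondrocyte-like cluster 4 was below the resting cluster in every library, at 248 CPM (232 to 309). The hypertrophic chondrocyte-like cells were at 88.2 CPM and the tenocyte-like cells at 40.0 CPM. *Cytl1* was thus high in several clusters, with the resting cells near the top. The order of clusters 3 and 6 differed by condition, with 620 and 584 CPM in control cells and 389 and 491 CPM in p21 cells. Cluster 7 was at 544 CPM in control cells.

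*Barx1* was highest in the interzone or articular-like cluster 8, the future joint, at 343 CPM (303 to 380 over libraries). The resting cluster followed at 144 CPM (129 to 172), with no overlap between both ranges. Unnamed cluster 9 was at 83.9 CPM (55.9 to 102) and cluster 4 at 71.6 CPM (47.2 to 83.9), both below every resting value. The other proliferative chondrocyte-like cluster 5 was at 6.51 CPM, so *Barx1* separated 2 clusters with the same name.

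*Hes5* was at 78.3 CPM (54.3 to 94.8) in the resting cluster. Only unnamed cluster 19 was as high, at 80.6 CPM. All of its 37 cells were p21 cells, 91.9% of them from S4, and *Cdkn1a* was among its leading genes. In control cells the resting cluster was at 82.5 CPM (32.6 to 238 over libraries), the highest of the clusters with at least 30 control cells. With both conditions joined, clusters 4 (37.0 CPM, 30.5 to 53.1) and 5 (26.5 CPM, 21.7 to 33.8) were lower than the resting cluster in every library. In the S1 control cells alone, resting cells were at 32.6 CPM (13 UMIs) and other chondrocytes at 40.0 CPM (43 UMIs). The interzone or articular-like cells were at 8.08 CPM and the perichondrium or groove-like cells at 2.92 CPM.

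In the clusters of at least 30 cells, *Zeb1* was highest in the muscle-like cells, at 357 CPM (351 to 363 in 2 libraries). It was at 465 CPM in the 14 endothelial-like cells, and was at 198 CPM in the perichondrium or groove-like cells and 174 CPM in the larger osteoprogenitor-like cluster. The resting cluster was at 58.5 CPM (43.9 to 80.7). Its range overlapped those of clusters 4 (72.5 CPM), 5 (42.9 CPM) and 13 (54.9 CPM), so the chondrocytes as a whole were at the low end.

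*Slc16a10* was highest in the immune-like cells, at 124 CPM, 86.8% of which came from S4. The resting cluster was at 14.7 CPM (9.23 to 24.2), below the central value of cluster 4 (36.7 CPM, 18.9 to 62.0) and near that of cluster 5 (15.2 CPM, 7.72 to 21.1). Both ranges overlapped that of the resting cells.

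The genes whose levels over the 19 clusters were most like each of the 5 (Pearson's r of log2(CPM + 10), a description across clusters that share libraries) were *Klf2* (r = 0.918), *Matn4* (0.893) and *Fzd9* (0.873) for *Cytl1*. For *Barx1* they were *Osr2* (0.817), *Rasl10a* (0.796) and *Ppp1r3g* (0.780). *Hes5* was most like *Hes1* (0.875), which is itself a Notch target, *Junb* (0.873) and *Id1* (0.851). *Zeb1* was most like *Ppm1a* (0.940), *Ammecr1l* (0.922) and *Cdk19* (0.911), and *Slc16a10* was most like *Osbpl8* (0.872), *Dnmt3b* (0.859) and *5430427M07Rik* (0.831). Among the 5, *Barx1* and *Hes5* were the closest pair (r = 0.552), and *Cytl1* ran opposite to *Zeb1* (r = -0.503).

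Single-cell shares told the same genes apart. Each cell was thinned to 5000 UMIs, which left out 17 of 268 resting cells. *Cytl1* was then detected in 75.3% of resting cells, against 50.4% of other chondrocytes and 20.8% of muscle-like cells (90.7%, 80.2% and 52.9% without thinning, at median depths of 21155, 28419 and 21239 UMIs). *Barx1* was detected in 36.3% of resting, 15.3% of other chondrocytes and 2.08% of muscle-like cells (64.6%, 39.0% and 13.7% unthinned). *Hes5* was detected in 13.1% of resting cells and 9.66% of other chondrocytes, whose 95% exact binomial intervals overlapped, and in 2.08% of muscle-like cells (24.3%, 26.3% and 21.6% unthinned). Among the cells in which it was found, resting cells held 2.55 UMIs each and other chondrocytes 1.63, so its higher summed level in resting cells went with more UMIs in a minority of cells.

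For *Zeb1* the thinned share in resting cells, 23.1%, was close to that in other chondrocytes (21.6%) and below that in tenocyte-like cells (47.1%) and muscle-like cells (66.7%), with unthinned shares of 47.0%, 60.4%, 81.3% and 84.3%. For *Slc16a10* the thinned shares were 6.77% in resting cells, 11.2% in other chondrocytes and 5.88% in tenocyte-like cells (18.7%, 30.1% and 22.8% unthinned), and no cell type here was known to lack it. Intervals cover counting error only.

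**Figure D2:**
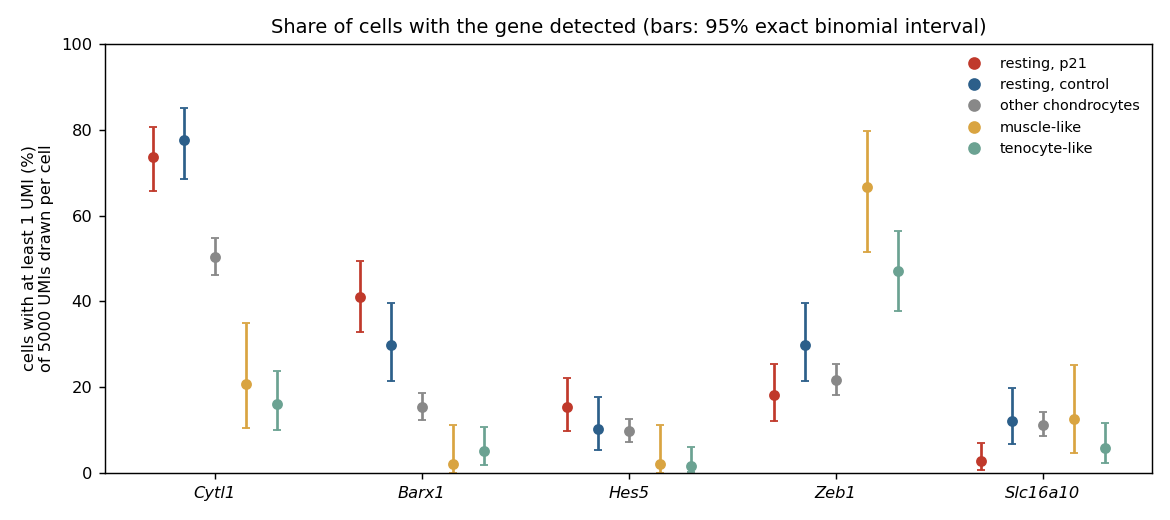
Percent of cells with at least 1 UMI of each gene after 5000 UMIs were drawn from each cell (vertical axis), for resting chondrocytes by condition and for 3 other classes with both conditions joined. Points are shares over all libraries and bars are 95% exact binomial intervals. Of the classes plotted, *Cytl1* and *Barx1* are most often detected in resting cells and *Zeb1* in muscle-like cells.

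The next comparison asked how the 5 genes stood in resting chondrocytes with and without p21. Since they were chosen on this contrast, the values are a description. *Cytl1* was at 418, 415, 337 and 474 CPM with p21 in S1 to S4, against 724, 534, 781 and 817 CPM in control cells of the same libraries. Every p21 value lay below every control value, with means of 411 ± 56.4 and 714 ± 126 CPM (SD, n = 4). The fitted log2 difference was -0.79, or -0.37 to -1.21 within single libraries.

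*Zeb1* was at 35.0, 42.3, 47.5 and 38.4 CPM with p21 in S1 to S4, against 59.4, 101, 107 and 94.9 CPM in controls. The groups did not overlap, and the means were 40.8 ± 5.37 and 90.5 ± 21.3 CPM. The fitted log2 difference was -1.13, but it was -0.65 when the 5 genes were used in the clustering, -0.77 at a Leiden resolution of 1.5, -0.60 when only cells of at least 3000 UMIs were kept and -0.54 when cluster 4 was counted as resting, a setting chosen after the data were seen.

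*Slc16a10* rested on 84 UMIs. It was at 12.51, 14.1, 6.34 and 3.92 CPM with p21 (5, 5, 8 and 5 UMIs) and 29.7, 29.8, 20.8 and 35.0 CPM in controls (11, 28, 8 and 14 UMIs). The groups did not overlap here either, although in S3 both conditions had 8 UMIs at unequal depth. The fitted log2 difference was -1.93, and it was -0.65 with cluster 4 counted as resting. It had too few counts to be fitted at a Leiden resolution of 1.5, without doublet removal or without the fraction term.

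*Barx1* did not follow them. It was at 120, 147, 148 and 204 CPM with p21 in S1 to S4 and 167, 132, 112 and 122 CPM in controls. The groups overlapped, and the p21 value was lower in S1 and higher in S2, S3 and S4. The fitted log2 difference was 0.25, and 0.06 without the p21 cells of S4.

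The summed level of *Hes5* followed the collections. It was at 145, 113, 76.8 and 51.7 CPM with p21 and 35.1, 36.1, 91.1 and 260 CPM in controls. The p21 cells were higher in S1 and S2, by 2.02 and 1.62 on the log2 scale, and lower in S3 and S4, with log2 ratios of -0.24 and -2.31. These sums rested on few cells, since 3 of 16, 10 of 61, 4 of 19 and 5 of 21 control cells had a *Hes5* UMI in S1 to S4. With p21, 6 of 15, 6 of 16, 17 of 53 and 14 of 67 cells did. This unthinned share did not follow the collections, at 32.1% with p21 and 21.1% in controls in S3 and 20.9% and 23.8% in S4. The fitted log2 difference of -0.12 turned to 0.86 without the control cells of S4, the highest value, and to 0.31 without the p21 cells of S4. Since the sexes were crossed between the collections, the male cells had the higher summed level in 4 of 4 libraries. Collection and the sex of the p21 cells cannot be told apart. The summed level (CPM without TMM) of 23 dissociation and heat-shock genes had the same pattern, with 17407 and 15827 CPM in p21 cells of S1 and S2 against 15600 and 14514 in controls, and 10205 and 12738 CPM in S3 and S4 against 17661 and 21336 in controls. The part of these genes in the *Hes5* values was not tested.

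**Figure D3:**
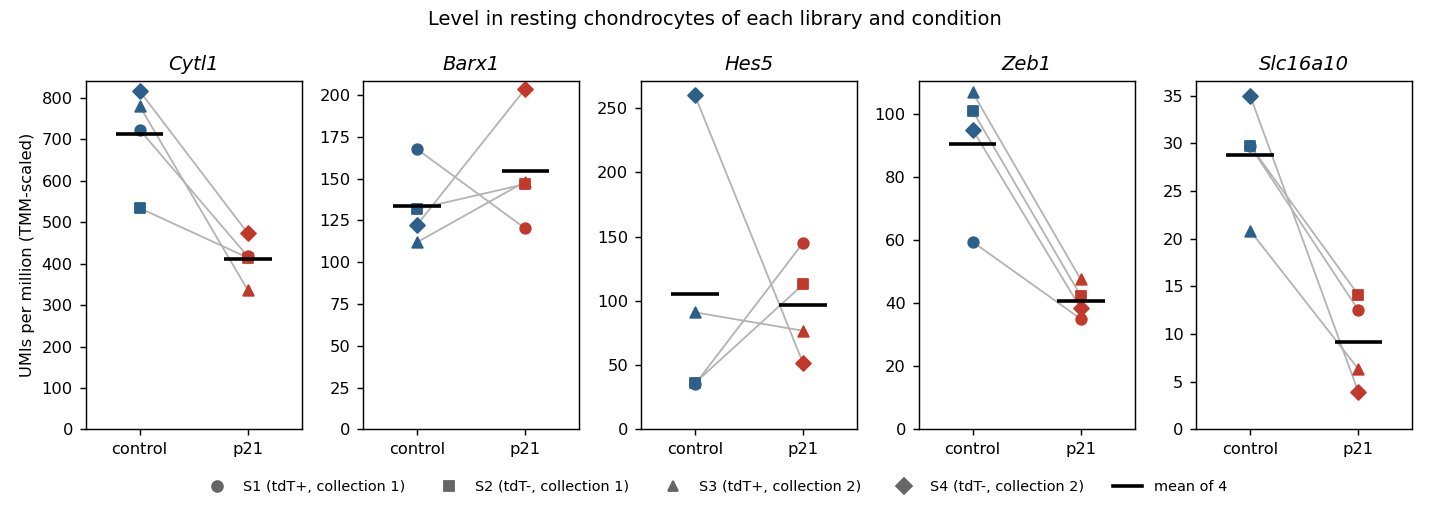
Level of each gene in resting chondrocytes (vertical axis, TMM-scaled CPM, from 0) in control and p21 cells, with a grey line joining the cells of 1 library and a black bar at the mean of 4. *Cytl1*, *Zeb1* and *Slc16a10* do not overlap between conditions, *Barx1* and *Hes5* do.

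All p21 values lay below all control values for 3 of the 5 genes, and for 2.14% of the 6574 genes tested (141). The same 3 were lower with p21 in every library, as were 7.79% of all genes. No conclusion about the 5 is drawn from either count, since both come from the contrast they were chosen on. Their median log2 difference was -0.79, beside -0.002 over all genes tested, and no conclusion is drawn from it for the same reason. At an adjusted p of 0.05, 0.0608% of genes (4 of 6574) differed, namely *WPRE*, and *Sorbs2* (-1.17, SE 0.15, adjusted p = 0.00656), *Adam12* (-1.77, SE 0.25, adjusted p = 0.0124) and the cell-cycle inhibitor *Cdkn1c* (-0.48, SE 0.08, adjusted p = 0.0425), which fell. They are named after their values were seen. No gene passed when the 5 genes were used in clustering, at a Leiden resolution of 1.5 or with cells of at least 3000 UMIs.

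Other marker lists differed in the same cells (CPM without TMM). The summed level of 7 proliferative chondrocyte markers was 1794 to 2114 CPM with p21 and 2332 to 2792 CPM in controls, lower in 4 of 4 libraries. The 7 resting markers other than the 5 genes summed to 357 to 510 CPM with p21 and 349 to 402 CPM in controls, higher in 3 of 4. The 7 interzone or articular markers, 6 of them raised in cluster 8 where *Barx1* was highest, summed to 306 to 440 CPM with p21 and 373 to 483 CPM in controls, lower in 4 of 4. Of the 7 muscle markers, 4 (*Pax7*, *Myod1*, *Myf5* and *Myh3*) were at 0 and the sum was at most 4.57 CPM in any group. The 7 immune markers summed to at most 5.16 CPM. The 6 endothelial markers, with *Tie1* at 0, summed to 42.8 to 81.6 CPM with p21 and 40.1 to 195 CPM in controls, the highest value in the S3 controls, and *Zeb1* was at 465 CPM in endothelial-like cells. The 6 epidermis markers, with *Krt14* at 0, were at 0 to 4.57 CPM with p21 and 11.4 to 26.1 CPM in controls. Median depth was 18291 to 27046 UMIs per resting p21 cell over the libraries and 11969 to 27736 per control cell. The part of these differences in the values of the 5 genes was not tested.

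The thinned single-cell shares followed the sums for *Zeb1* and *Slc16a10* only in part. *Zeb1* was detected in 18.1% of 144 p21 and 29.9% of 107 control resting cells, with overlapping 95% intervals of 12.1 to 25.3% and 21.4 to 39.5%. Intervals here cover counting error of pooled cells and not the spread between embryos. In S1 to S4 the *Zeb1* shares were 6.67%, 25.0%, 16.7% and 20.0% with p21 and 25.0%, 37.3%, 31.6% and 14.3% in controls. The p21 share was thus lower in S1, S2 and S3 and higher in S4. *Slc16a10* was detected in 2.78% (0.762 to 6.96%) and 12.1% (6.63 to 19.9%). *Cytl1* was detected in 73.6% and 77.6%. These pooled *Cytl1* shares were alike, but S2 held 51 of the 107 control cells and the libraries differed. The p21 share of *Cytl1* was lower in S1 (66.7% against 81.25%), S3 and S4, and higher in S2 (81.25% against 70.6%). Its UMIs per positive cell were fewer with p21 in each library, and 2.65 with p21 and 3.64 in controls over all. The lower *Cytl1* sum thus came with fewer UMIs per positive cell, and in S1, S3 and S4 also with a lower share. *Barx1* was detected in 41.0% of p21 and 29.9% of control cells and *Hes5* in 15.3% and 10.3%, both with overlapping intervals. Without thinning, the p21 and control shares were 88.1% and 94.0% for *Cytl1*, 70.2% and 57.3% for *Barx1*, 28.5% and 18.8% for *Hes5*, 43.0% and 52.1% for *Zeb1*, and 11.3% and 28.2% for *Slc16a10*. In the thinned cells at most 4 of the 5 genes were detected together, in 1 p21 cell.

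The p21 against control difference in the other chondrocytes was not used to choose the genes, so it could be tested. None of the 5 differed at an adjusted p of 0.05 in edgeR's test, against 0.491% of all 10387 genes (51). *Barx1* came closest, at 26.5, 24.7, 49.2 and 36.5 CPM with p21 in S1 to S4 and 18.5, 18.6, 26.6 and 21 CPM in controls, higher in 4 of 4 libraries (log2 fold change 0.77, SE 0.23, adjusted p = 0.233, unadjusted p = 0.00597 in edgeR). With no filter on low counts its adjusted p was 0.0385, so this call depended on the filter. Its thinned share was 18% of 350 p21 cells (95% exact binomial interval 14.1 to 22.4%) and 10.1% of 178 control cells (6.10 to 15.5%), or 44.5% and 28.6% unthinned. *Cytl1*, at 166, 339, 176 and 169 CPM with p21 and 243, 220, 360 and 221 CPM in controls, was lower in 3 of 4 libraries (log2 fold change -0.35, SE 0.23, adjusted p = 0.691). Its thinned share was 44.9% of p21 cells (39.6 to 50.2%) and 61.2% of control cells (53.7 to 68.4%), or 79.3% and 82.0% unthinned, intervals that cover counting error of pooled cells and not the spread between embryos.

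*Zeb1* was at 55.2 ± 13.6 CPM with p21 and 55.3 ± 11.7 CPM in controls (log2 fold change 0.06, SE 0.19, adjusted p = 0.984). No difference was thus detected in the other chondrocytes, but the contrast between both classes was not tested, since the genes were chosen on the resting contrast. *Slc16a10* was at 21.3 ± 9.14 and 24.6 ± 8.47 CPM (log2 fold change -0.12, SE 0.24, adjusted p = 0.953) and *Hes5* at 33 ± 11.7 and 23.1 ± 11.7 CPM (0.51, SE 0.33, adjusted p = 0.685). Within cluster 4, *Cytl1* was at 212 CPM with p21 and 330 CPM in controls over all libraries, and in cluster 5 at 171 and 224 CPM. The cells put in neither class entered none of the comparisons. Of their clusters, 6, 7 and 9 had at least 30 cells of each condition. *Cytl1* was at 197 CPM with p21 (139 to 273 in 3 libraries) and 544 in controls (391 to 893 in 4) in cluster 7. It was at 491 and 584 CPM in cluster 6 and 113 and 191 CPM in cluster 9. These differences were not tested.

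In the cells outside cartilage, where *WPRE* was at 332 ± 274 CPM with p21 and 245 ± 206 CPM in controls (adjusted p = 1), none of the 5 differed at an adjusted p of 0.05 in edgeR's test, and 0.00733% of 13637 genes did. That is 1 gene, *Gm28653* (log2 fold change 6.79, SE 0.61, adjusted p = 0.00446), named after its value was seen and a leading gene of the muscle-like cluster, which held 45 p21 and 6 control cells. With the library as a block, 2 genes passed. *Zeb1* was at 177 ± 18.5 CPM with p21 and 148 ± 29.7 CPM in controls, higher with p21 in 4 of 4 libraries (log2 fold change 0.26, SE 0.13, adjusted p = 1 and unadjusted p = 0.0666 in edgeR). *Cytl1* was at 86.8 ± 18.1 and 66.5 ± 30.1 CPM (0.47, SE 0.21, adjusted p = 1 and unadjusted p = 0.0491), and its adjusted p was 0.0113 with no filter on low counts. Its direction turned in 4 other settings that regrouped the cells, to -0.20 to -0.33. *Barx1* was at 14, 47.9, 54.0 and 47.7 CPM with p21 in S1 to S4 and 34.6, 64.6, 35.7 and 16.5 CPM in controls, lower with p21 in collection 1 and higher in collection 2 (0.15, SE 0.41, adjusted p = 1). *Hes5* (5.78 ± 3.29 and 4.03 ± 1.68 CPM) and *Slc16a10* (21.1 ± 5.27 and 24.3 ± 11.9 CPM) also had an adjusted p of 1.

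**Figure D4:**
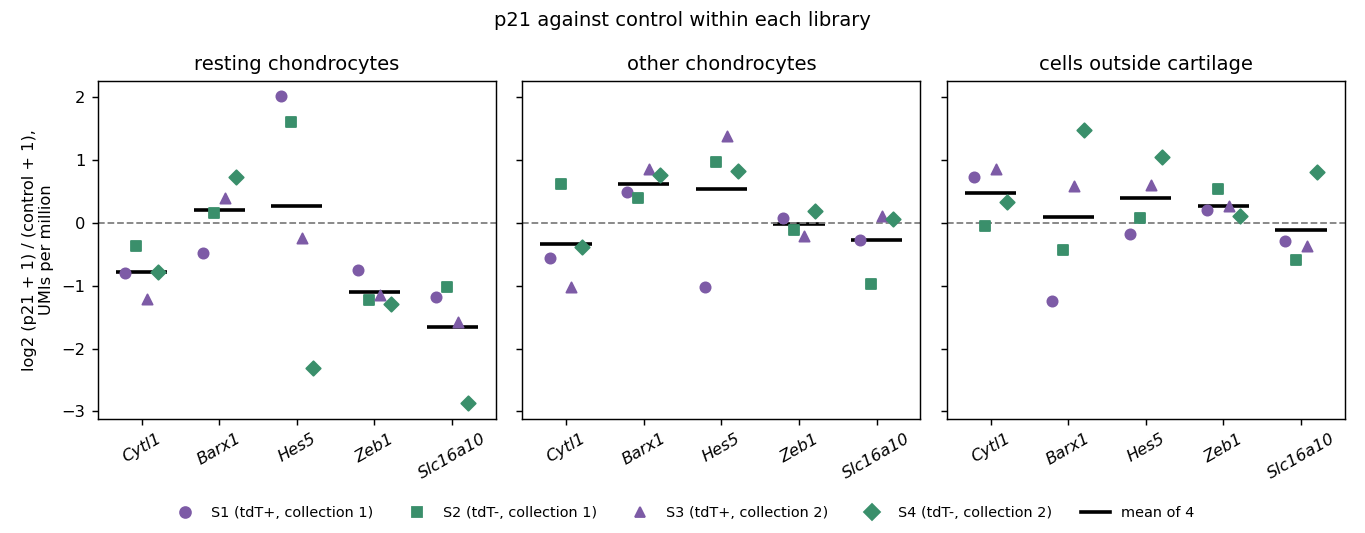
Log2 ratio of p21 to control (vertical axis, CPM + 1) of each gene within each of the 4 libraries, for resting chondrocytes, other chondrocytes and cells outside cartilage. Symbols are libraries, purple for tdT+ and green for tdT-, and black bars are means of 4. In resting chondrocytes all 4 points of *Cytl1*, *Zeb1* and *Slc16a10* lie below 0, whereas in the other classes plotted no gene has all 4 points below 0. The 633 cells put in neither class are not plotted.

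The last comparison set the *Gli1*-lineage (tdT+) resting chondrocytes against the tdT- ones, a contrast that did not choose the genes. The tdTomato transcript was at 16.6 to 27.5 CPM in the 4 tdT+ sums and at 0 to 2.50 CPM in the 4 tdT- sums. None of the 5 differed at an adjusted p of 0.05, and 0% of the 6574 genes did by edgeR's test, with 284 at an unadjusted p under 0.05 and 1 gene by DESeq2. *Cytl1* was at 565 ± 220 CPM in tdT+ and 560 ± 178 CPM in tdT- cells (SD, n = 4, log2 fold change -0.04, SE 0.15, adjusted p = 0.996). *Barx1* was at 137 ± 25.6 and 151 ± 36.4 CPM (-0.16, SE 0.18), *Hes5* at 87.1 ± 45.4 and 115 ± 102 CPM (-0.23, SE 0.52) and *Zeb1* at 62.2 ± 31.3 and 69.1 ± 33.4 CPM (-0.08, SE 0.22). *Slc16a10* was at 17.3 ± 10.2 and 20.7 ± 14.3 CPM (-0.11, SE 0.44). The adjusted p of these 4 was also 0.996.

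The pathways around the 5 genes were described from fixed lists. Of 30 Notch pathway genes, 13 could be tested in resting chondrocytes and none passed, with 5 fitted higher and 8 lower with p21 and a median log2 difference of -0.18, beside -0.002 over all genes. The receptor *Notch1* was at 26.5 ± 5.55 CPM with p21 and 27.6 ± 9.24 in controls (log2 fold change -0.19, SE 0.31, adjusted p = 0.937) and *Notch2* at 144 ± 24.2 and 167 ± 19.9 (-0.18, SE 0.16, adjusted p = 0.847). *Rbpj*, the factor through which Notch acts on *Hes5*, was at 86.0 and 75.2 CPM (0.16, SE 0.20, adjusted p = 0.913), and its co-activators *Maml2* (-0.58, SE 0.24, adjusted p = 0.567) and *Maml3* (-0.59, SE 0.32, adjusted p = 0.704) did not pass. In the other chondrocytes 19 Notch genes were tested, 12 fitted higher and 7 lower, and none passed. There *Notch1* (0.47, SE 0.18, adjusted p = 0.394), *Notch2* (-0.05), *Notch3* (0.17), the ligand *Jag1* (0.72, SE 0.31, adjusted p = 0.478) and *Rbpj* (0.41, SE 0.14, adjusted p = 0.33) were measured.

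Of 12 genes around mesenchymal state, to which *Zeb1* belongs by function, 7 were tested in resting chondrocytes and none passed (3 fitted higher, 4 lower, median -0.18). The homeodomain factor *Prrx1* was nearest, at 73.3 ± 17.5 CPM with p21 and 153 ± 36.2 CPM in controls, lower in 4 of 4 libraries (log2 fold change -1.05, SE 0.20, adjusted p = 0.0717). *Snai1*, also an E-box repressor, was at 187 ± 34 and 136 ± 50.4 CPM, higher in 4 of 4 libraries (0.50, SE 0.17, adjusted p = 0.409). *Snai2* (-0.63, SE 0.29, adjusted p = 0.631), *Twist1* (-0.19, SE 0.25, adjusted p = 0.921) and *Cdh11* (0.18, SE 0.20, adjusted p = 0.904) were further from the threshold. In the other chondrocytes 9 were tested, with 8 fitted higher and 1 lower (median 0.25), and none passed.

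Of 18 monocarboxylate, amino acid and thyroid hormone genes listed with *Slc16a10*, 7 were tested in resting chondrocytes and none passed. The lactate transporters *Slc16a1* (-0.19, SE 0.26, adjusted p = 0.921) and *Slc16a3* (-0.15, SE 0.20, adjusted p = 0.92), *Slc16a4* (0.34, SE 0.24, adjusted p = 0.809) and the amino acid transporter *Slc7a5* (-0.003, SE 0.28, adjusted p = 0.999) gave the values stated.

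Of 20 limb patterning factors listed with *Barx1*, 8 were tested in resting chondrocytes, 6 were fitted higher with p21 and 2 lower (median 0.19), and none passed. *Meis2* had the widest difference of the 5 named, at 107 ± 31.7 and 49.7 ± 40.0 CPM (log2 fold change 1.08, SE 0.33, adjusted p = 0.338). *Shox2* (0.13), *Meis1* (0.40), *Pitx1* (0.01) and *Msx1* (0.57) had an adjusted p of 0.827 or more. In the other chondrocytes 11 were tested and none passed.

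Of 7 other resting-zone genes, 3 could be tested in resting chondrocytes, with 2 fitted higher and 1 lower with p21, and none passed. *Ucma* and *Sfrp5*, which helped to name cluster 3, were not among the 3. *Pthlh*, which encodes the hormone that keeps chondrocytes from enlarging, was at 22.5 ± 8.79 CPM with p21 and 28.6 ± 22 CPM in resting controls (-0.44, SE 0.43, adjusted p = 0.876). *Gdf10* was at 142 ± 53.7 and 147 ± 60.1 CPM (0.02, SE 0.24, adjusted p = 0.99), and the hedgehog co-receptor gene *Gas1* at 214 ± 40.7 and 169 ± 37.2 CPM (0.34, SE 0.18, adjusted p = 0.676). Among the 5 such genes tested in other chondrocytes, *Clu*, which encodes a secreted chaperone, fell (6.57 ± 3.25 and 20.8 ± 4.11 CPM, log2 fold change -1.55, SE 0.30, adjusted p = 0.0453). *Pthlh* (0.09), *Gdf10* (-0.03), *Wif1* (0.29) and *Gas1* (-0.08) had an adjusted p of 0.925 or more.

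Of 20 cartilage matrix and SOX genes, none passed in resting chondrocytes (8 fitted higher, 12 lower, median -0.13), and *Matn3*, a matrix protein gene, fell in other chondrocytes (161 ± 36.2 against 378 ± 75.4 CPM, -1.26, SE 0.13, adjusted p = 0.000809). In the same cells 1 of 42 S-phase genes, *Gmnn* (-0.98, SE 0.19, adjusted p = 0.0439), and 1 of 51 tested G2M genes, *Ndc80* (-1.68, SE 0.23, adjusted p = 0.00519), fell. Of the 23 dissociation and heat-shock genes, 3 fell there, namely *Hspa1a* (-3.39, SE 0.35, adjusted p = 0.000809), *Hspa1b* (-2.62, SE 0.43, adjusted p = 0.0176) and *Hsph1* (-1.33, SE 0.25, adjusted p = 0.0399). In resting chondrocytes 19 of 22 such genes tested were fitted lower with p21 and none passed, with a median of -0.36. Of the cell-cycle lists there, 21 of 34 S-phase genes and 33 of 46 G2M genes tested were fitted lower, and none passed. No gene of any of these lists passed in the cells outside cartilage or between tdT+ and tdT- resting chondrocytes.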

How the data were processed

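The 4 libraries hold sorted hindlimb cells. The authors aligned the reads with Cell Ranger 7.2.0 (submitters' processing notes) to GRCm38/mm10 with added tdTomato, CreERT2 and *WPRE* sequences and deposited raw UMI counts for each barcode, not normalized. The steps against ambient RNA and doublets that the study's methods describe were not evident in these counts.

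Here scanpy 1.11.5 (Python 3.11.15) was used, and barcodes under 1000 UMIs, under 500 genes or above 10% mitochondrial counts were dropped. Sex came from *Xist* against Y-linked genes (at least 2 UMIs, 80% of 1 side). The 175 cells with both sexes and the top 5% of Scrublet scores were left out as doublets. Cells were clustered (2000 variable genes, 30 principal components, 15 neighbours, Leiden resolution 1) without the 5 genes, sex genes, transgenes, stress genes and 607 cell-cycle-correlated genes, and named from marker lists (3 markers in 10% of cells at 1.5 times the level elsewhere).

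Counts summed per library and condition were tested in R 4.3.3 with edgeR 4.0.16 (filterByExpr, TMM, glmQLFit, glmQLFTest, Benjamini-Hochberg, threshold 0.05), with fraction as covariate, or condition in the tdT comparison. DESeq2 1.42.0 was an alternative. The test was checked on simulated data with 200 changed genes in each of the 4 comparisons. It recovered 57 to 74% of log2 changes of 1 and 95 to 99% of log2 changes of 2. Of its calls, 5.39 to 7.69% were false. The study's methods name limma on TMM-scaled sums with unadjusted p-values, and its results name edgeR. The tests treat 8 values from 4 embryo pools as independent. Libraries pair p21 with control cells (1 reaction each) and pools pair tdT+ with tdT- cells (same embryos). Within pairs, deviations from group means correlated across genes at r = -0.107 to 0.0158 (libraries, resting), -0.0387 to 0.0973 (other chondrocytes), 0.149 to 0.297 (outside) and 0.0563 to 0.167 (pools). The 5 genes and the gene lists were chosen with earlier results of these data known. Named genes were the 5, the 3 most like each over clusters (at least 100 UMIs), *Cdkn1a* and transgenes, and from the lists those that passed, otherwise the first 5 tested, plus the tested resting-zone genes. 1 gene that this rule names is not reported here. Matching promoters (RefSeq, GRCm38.p6) were at hand for 4 of the 5.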

Additional observations from a re-analysis of the deposited data

Results flagged for a closer look

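Groups of 4 values were checked for a value standing far from the other 3, over 40 groups, of which chance flags about 1 in 20, and 3 stood apart. In other chondrocytes, *Cytl1* was at 339 CPM in the p21 cells of S2, which summed 16 cells, and at 360 CPM in the control cells of S3. In cells outside cartilage, *Barx1* was at 14 CPM in the p21 cells of S1.

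For 3 results the p21 against control difference had opposite signs in both libraries of collection 1 and both of collection 2. The mean log2 ratio in collection 1 exceeded that in collection 2 by 3.09 for *Hes5* in resting chondrocytes. The same difference, collection 1 minus collection 2, was -1.87 for *Barx1* in cells outside cartilage and -0.71 for *Slc16a10* in other chondrocytes. These differences were not tested, and collection and the sex of the p21 cells cannot be told apart.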

How the results depend on the processing

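In resting chondrocytes, *Cytl1*, *Zeb1* and *Slc16a10* were lower with p21 under every alternative that could be fitted, from -0.95 to -0.63 (20 alternatives), -1.31 to -0.54 (20) and -2.17 to -0.65 (17) on the log2 scale. *Barx1* stayed above 0, from 0.06 to 0.49, and *Hes5* ran from -0.48 to 0.86, with the sign of the reported value in 14 of 20. The number of genes called depended on most choices, and the cause was not tested. For resting chondrocytes, other chondrocytes, cells outside cartilage and the tdT comparison it was 103, 369, 262 and 36 with no filter on low counts, and 21, 117, 6 and 1 by DESeq2's Wald test. In resting chondrocytes it was 0 with the 5 genes kept in clustering, at a Leiden resolution of 1.5 and with at least 3000 UMIs per cell, 2 without doublet removal and 1 with a stricter sex call. In other chondrocytes it was 33 with the 5 genes kept, 30 at a resolution of 1.5, 29 without doublet removal, 12 with a stricter sex call, 19 with the fractions of a pool summed and 14 with cluster 4 counted as resting, an alternative chosen after seeing the data. Outside cartilage it was 0 with a stricter sex call, with the fractions summed and without the fraction term.

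With the library as a replicate block it was 2 outside cartilage. The block, and the pool block in the tdT comparison, changed no other call on the 5 genes.

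Leaving out each of the 8 summed samples in turn gave 2 to 19 calls in resting chondrocytes (2 without the p21 or the control cells of S4, 10 without the control cells of S1 and 19 without those of S2). It gave 11 to 44 in other chondrocytes (11 without the p21 cells of S3, with 20, 28 and 18 when the S1, S3 or S4 control cells were dropped). It gave 0 to 2 outside cartilage (0 without the control cells of S4, 2 without those of S2) and 0 to 3 in the tdT comparison (3 without the control cells of S2, 1 without the p21 cells of S4). These omissions turned the sign of fits that no test called. In other chondrocytes *Zeb1* ran from -0.18 to 0.14 and *Slc16a10* from -0.33 to 0.038, and outside cartilage *Barx1* from -0.30 to 0.48 and *Slc16a10* from -0.49 to 0.074. Between tdT+ and tdT- cells *Cytl1* ran from -0.20 to 0.062, *Barx1* from -0.33 to 0.034, *Hes5* from -0.66 to 0.60, *Zeb1* from -0.23 to 0.11 and *Slc16a10* from -0.45 to 0.075.

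Other sign changes were also in fits not called. Outside cartilage, *Cytl1* was at -0.24 with the 5 genes kept in clustering, -0.21 at a resolution of 1.5, -0.20 with at least 3000 UMIs and -0.33 without doublet removal, and *Hes5* at -0.15 at a resolution of 1.5 and -0.12 with at least 3000 UMIs. In other chondrocytes, *Zeb1* was at -0.10 with a stricter sex call and *Slc16a10* at 0.21 with cluster 4 counted as resting. In the tdT comparison, *Cytl1* and *Zeb1* were at 0.069 and 0.10 with the 5 genes kept, 0.066 and 0.65 at a resolution of 1.5 and 0.39 and 0.31 with at least 3000 UMIs. There *Cytl1* was at 0.0018 without the condition term, and *Zeb1* and *Slc16a10* at 0.094 and 0.33 with cluster 4 counted as resting.

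Depth limited *Slc16a10* most, with 5 to 28 UMIs per summed sample of resting cells. The tests rest on 4 embryo pools, 1 of them a single embryo by the study's methods, and p-values measure only the spread between these sums.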
